A study of Talaromyces verruculosus with 6 samples.

Results

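A set of 64 genes of the filamentous fungus Talaromyces verruculosus, strain TS63-9, was close to silent in control mycelia and expressed in mycelia given pectin. They are 0.565% of the 11326 annotated genes. A gene entered the set when its mean level was under 1 RPKM (reads per kilobase of exon, scaled to library size) in the control libraries and at least 4 RPKM in the pectin libraries, with the lowest pectin value above the highest control value. The genes were thus chosen by their RPKM values in these same 6 libraries, so the difference in level between pectin and control is given here as a description; calls from a test over all genes are printed beside it and support nothing about these genes. The cultures were actively growing mycelia started from plugs in a basic medium. The pectin group had 5 g/L of pectin added in 3 cultures, the control group had 3 cultures with none, and both were collected after 24 h. The series' design text calls the cultures biological replicates.

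Pectin is a plant cell wall polysaccharide rich in galacturonic acid. Filamentous fungi break it down outside the cell with secreted enzymes, among them polygalacturonases, pectin and pectate lyases and pectin esterases, then take up the released sugars through transporters and use them as carbon. Genes for such enzymes are commonly kept low without the substrate and are switched on by breakdown products, and genes that work together are at times neighbours in fungal genomes. Locus tags come without gene names or products here, so the genes below are given by tag, position and structure, and no role is assigned to any of them.

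The libraries held between 10320372 and 11393959 reads on annotated exons. Of the 2748 genes with a control mean under 1 RPKM, 2517 also stayed under 1 RPKM with pectin, 167 averaged from 1 to under 4 RPKM with pectin, and 64 averaged at least 4 RPKM. None of these 64 overlapped its controls, so the demand on overlap removed 0 genes. The set is thus 2.33% of the genes that were off in control.

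Together the 64 genes held 54471, 34116 and 28037 exon reads in pectin 1, 2 and 3, against 728, 534 and 601 reads in control 1, 2 and 3. Their share of all exon reads was 0.351 ± 0.115% in pectin and 0.00572 ± 0.00118% in control libraries (SD, n = 3 each). In RNA from a whole culture, more expressing cells and more RNA per cell cannot be told apart. The median gene of the set averaged 10.5 RPKM with pectin, against 0.448 RPKM in control. Of the 64 genes, 40 lay above 8.28 RPKM, the median of all annotated genes with pectin, 34 averaged at least 10 RPKM and 13 at least 30 RPKM. The 3 most abundant genes took 39.1% and the 10 most abundant 62.6% of the summed pectin RPKM of the set.

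All 64 genes passed the filter on low counts and were called higher with pectin by edgeR's quasi-likelihood test at an adjusted p under 0.05, beside 9.2% of the 9177 genes tested. Since the same contrast chose the genes, nothing is read from these calls or from those under other settings. Fitted log2 fold changes in the set ran from 2.43 to 11.22 with a median of 4.80, beside a median of −0.0061 over all genes tested. All 64 were also called with library size scaling (beside 5.94% of the genes tested), with RLE size factors (8.8%), without the filter on low counts (7.54%), with a replicate block (12.7%) and by DESeq2 (10.4%). Without 1 library, 59 to 64 were called: 62 without pectin 1 (beside 4.51%), 60 without pectin 2 (3.5%), 64 without pectin 3 (7.4%), 63 without control 1 (10.1%), 59 without control 2 (3.57%) and 62 without control 3 (6.51%).

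**Figure D1:**
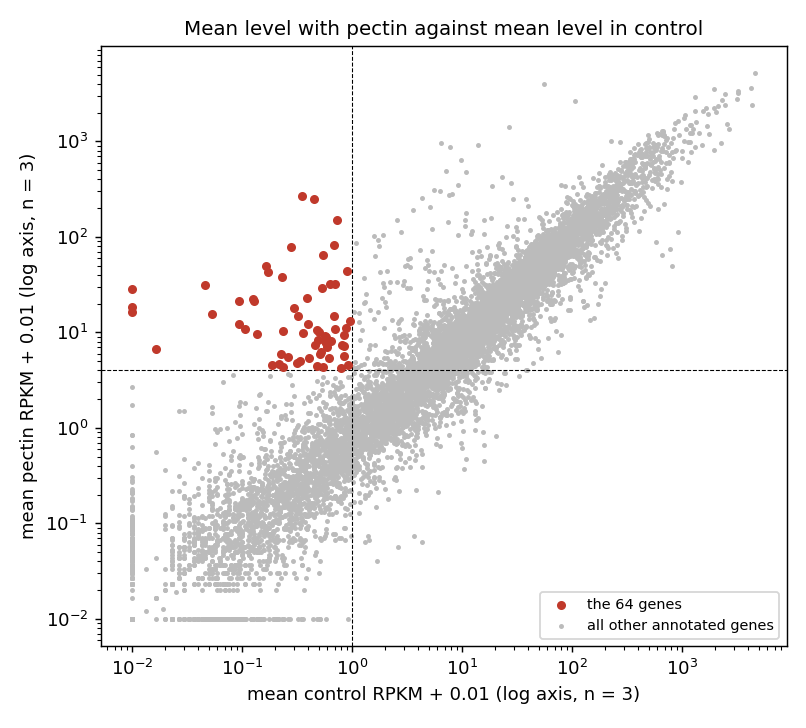
Mean RPKM with pectin (vertical, 3 libraries) against mean RPKM in control (horizontal, 3 libraries) for every annotated gene, each with 0.01 added, on log axes. Dashed lines mark the thresholds of 4 RPKM with pectin and 1 RPKM in control; the 64 genes fill the upper left corner, and 3 of them exceed 100 RPKM with pectin.

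**Figure D2:**
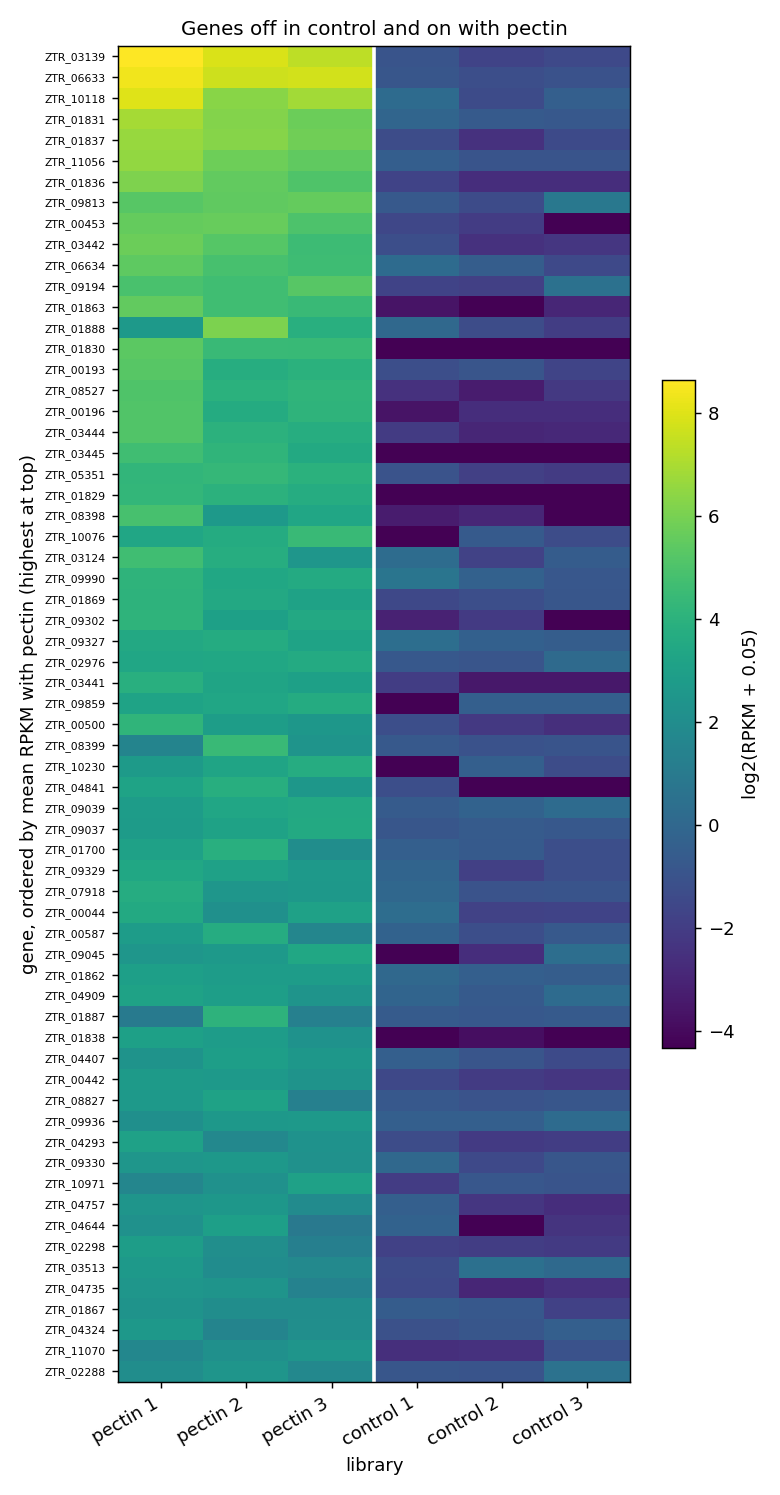
Level of each of the 64 genes in each library, as log2(RPKM + 0.05), pectin libraries left of control libraries, genes ordered by mean pectin RPKM. The highest rows average 267, 248 and 152 RPKM with pectin. Pectin 1 is the highest pectin column in 37 genes, pectin 2 in 15 and pectin 3 in 12. ZTR_01888, with 67.7 RPKM in pectin 2 against 6.12 in pectin 1, differs most between pectin columns.

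The most abundant gene of the set was ZTR_03139, a 7-exon gene on contig LHCL01000018 (1356 to 3020, minus strand). It had 401, 237 and 161 RPKM in pectin 1 to 3, against 0.47, 0.25 and 0.31 RPKM in control 1 to 3. The groups were far apart, and pectin 1 was the highest pectin library. Its pooled reads, scaled to the library totals behind RPKM, were 789 times as many with pectin as in control, with an exact 95% interval of 526 to 1245 that covers counting error only. The control side of this ratio rests on 23 reads.

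ZTR_06633, a 3-exon gene on LHCL01000063 (23423 to 25009, minus strand), had 328, 200 and 214 RPKM in pectin 1 to 3. In control 1 to 3 it had 0.51, 0.38 and 0.43 RPKM. Its pooled ratio was 570, with an exact 95% interval of 406 to 828. ZTR_10118, a 4-exon gene on LHCL01000077 (72506 to 73793, minus strand), was less even, with 260, 81.1 and 114 RPKM in pectin libraries against 1.10, 0.34 and 0.71 RPKM in controls. In both the pectin and the control group its highest value was in library 1.

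The next abundant genes averaged between 37.8 and 82.5 RPKM with pectin. Of these, ZTR_01831, ZTR_01837, ZTR_01836 and ZTR_03442 lie in the runs of neighbours described below. ZTR_11056, on LHCL01000066 from 37752 to 40917 on the minus strand, had 92.6, 54.7 and 44.8 RPKM in pectin libraries, against 0.68, 0.46 and 0.47 RPKM in controls. ZTR_00453, a 6-exon gene on LHCL01000008 (178133 to 179306, minus strand), averaged 43.4 ± 9.10 RPKM with pectin and 0.163 ± 0.148 RPKM in control (SD, n = 3 each). Control 3 held 0 exon reads of this gene. ZTR_09813, at 43.6 ± 4.35 RPKM with pectin and 0.887 ± 0.756 RPKM in control (SD, n = 3 each), differs from the others in the kind of reads it drew, as given further on.

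How silent the controls were differed among the genes. Read numbers in this paragraph are exon reads unless stated otherwise. In 3 genes no control library held an exon read, and in 14, these 3 included, at least 1 control library held none. Of the 14, ZTR_01838 had 1 read and ZTR_08398 had 3 reads in the 3 controls together. The median gene had 24 reads in the 3 controls together and 662 in the 3 pectin libraries together. The 3 genes without control exon reads were ZTR_01829, ZTR_01830 and ZTR_03445. Each count of 0 was set to 3 reads per control library, an approximate upper 95% limit. Against this floor they were at least 95.1-fold, at least 92.1-fold and at least 58.1-fold higher with pectin. Outside its exon, ZTR_01830 had 1 read in control 2 and 1 in control 3. At the other end, ZTR_01862 had 154 control reads and 0.800 ± 0.184 RPKM in control, against 7.40 ± 0.429 RPKM with pectin (SD, n = 3 each). Over the 48 genes with at least 10 control reads, the pooled ratio ran from 4.94 to 789 with a median of 18.4, was at least 16 in 27 genes and at least 100 in 9.

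The borders of the set cut through a continuous range. Just inside the control threshold were ZTR_09990, ZTR_03513 and ZTR_09813, with control means of 0.957, 0.903 and 0.887 RPKM. Just outside it were ZTR_04760, ZTR_09986 and ZTR_05635, with control means of 1.02, 1.03 and 1.06 RPKM beside 4.30, 16.5 and 4.91 RPKM with pectin. Just inside the pectin threshold were ZTR_02288, ZTR_04324 and ZTR_11070, with pectin means of 4.20, 4.37 and 4.37 RPKM. Just outside it were ZTR_03972, ZTR_10728 and ZTR_10334, with pectin means of 3.69, 3.60 and 3.57 RPKM. ZTR_09986 and ZTR_09990 both lie on contig LHCL01000173, on opposite sides of the control threshold.

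Position was not used by the rule. The 64 genes lay on 30 contigs, and 32 of them had another gene of the set as their direct neighbour. These 32 form 3 runs of at least 3 genes, holding 12 genes, and 10 separate pairs. The pairs include ZTR_03124 with ZTR_03139, and the level of ZTR_03124 has a limit given further on. In all there were 19 adjacent pairs. Of these, 9 were transcribed away from each other (47.4%, beside 28.7% of all 11040 adjacent pairs in the annotation), 5 towards each other (26.3%, beside 28.9%) and 5 in the same direction (26.3%, beside 42.4%). The median gap was 572 bp in these pairs and 858 bp over all adjacent pairs. With so few pairs that share runs, these shares are a description only.

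Contig LHCL01000003 held 11 of the 64 genes among its 412 annotated genes. Of these, 10 lay within 18 consecutive genes, a stretch of 47369 bp from 1225485 to 1272853, followed by the last 3 annotated genes of the contig. Their summed level was 434, 292 and 224 RPKM in pectin 1 to 3, against 3.48, 2.49 and 2.46 RPKM in control 1 to 3. The pectin libraries were well apart from the controls and differed among themselves, with pectin 1 highest.

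The first run in this stretch has 5 genes. ZTR_01862, an 11-exon gene and with 3750 bp the longest coding sequence of the set, had the most even pectin values of all 64 genes, at 7.88, 7.25 and 7.06 RPKM, against 1.01, 0.72 and 0.67 RPKM in controls. Its neighbour ZTR_01829 had 19.4, 16.2 and 13.2 RPKM with pectin and 0 in every control. ZTR_01863 followed with 46.2, 25.2 and 21.9 RPKM with pectin, against 0.03, 0 and 0.08 RPKM in controls. Strands alternate over these first genes, while the last pair of the run lies on the plus strand. ZTR_01830, a 1-exon gene, had 41.2, 22.3 and 21.1 RPKM with pectin and 0 in every control. ZTR_01831 had 119, 75.4 and 52.6 RPKM with pectin, against 0.90, 0.59 and 0.54 RPKM in controls.

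Next come 7 genes outside the set, 4 of which had a higher mean with pectin than in control. Their means ran from 0.09 to 42.2 RPKM with pectin and from 0.02 to 18.0 RPKM in control, so this interval was neither silent throughout nor uniformly higher. After it, ZTR_01836 had 70.7, 45.7 and 34.0 RPKM with pectin, against 0.25, 0.11 and 0.11 RPKM in controls. ZTR_01867, on the opposite strand between more abundant genes, had only 5.10, 4.12 and 4.07 RPKM with pectin, against 0.64, 0.54 and 0.23 RPKM in controls. ZTR_01837 had 98.9, 77.5 and 56.3 RPKM with pectin, against 0.35, 0.13 and 0.33 RPKM in controls. Mean pectin levels within this run of 3 thus differed more than 10-fold between neighbours on the RPKM scale. In pectin 3 alone, the difference between ZTR_01836 and ZTR_01867 was under 10-fold. One gene outside the set, ZTR_01868, separates this run from the pair ZTR_01869 and ZTR_01838. That gene averaged 3.13 ± 0.291 RPKM with pectin and 1.38 ± 0.374 RPKM in control (SD, n = 3 each). In the pair, ZTR_01838 had 8.37, 7.02 and 4.90 RPKM with pectin, and a single read in the 3 controls together.

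The third run, on LHCL01000012 from 87947 to 95410, has 4 genes, ZTR_03441, ZTR_03442, ZTR_03444 and ZTR_03445. Their summed level was 128, 80.4 and 57.3 RPKM in pectin 1 to 3, against 0.78, 0.25 and 0.29 RPKM in control 1 to 3. ZTR_03442 was the most abundant, at 37.8 ± 14.1 RPKM with pectin and 0.223 ± 0.137 RPKM in control (SD, n = 3 each). ZTR_03443, the next gene along, stayed outside the set only because its pectin mean was 2.99 ± 1.19 RPKM, against 0.0567 ± 0.0493 RPKM in control (SD, n = 3 each). A little further on, ZTR_03464 averaged 43.2 ± 10.3 RPKM with pectin and 1.80 ± 0.528 RPKM in control (SD, n = 3 each), which is above the control threshold. These 2 neighbours were picked after their values were seen.

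**Figure D3:**
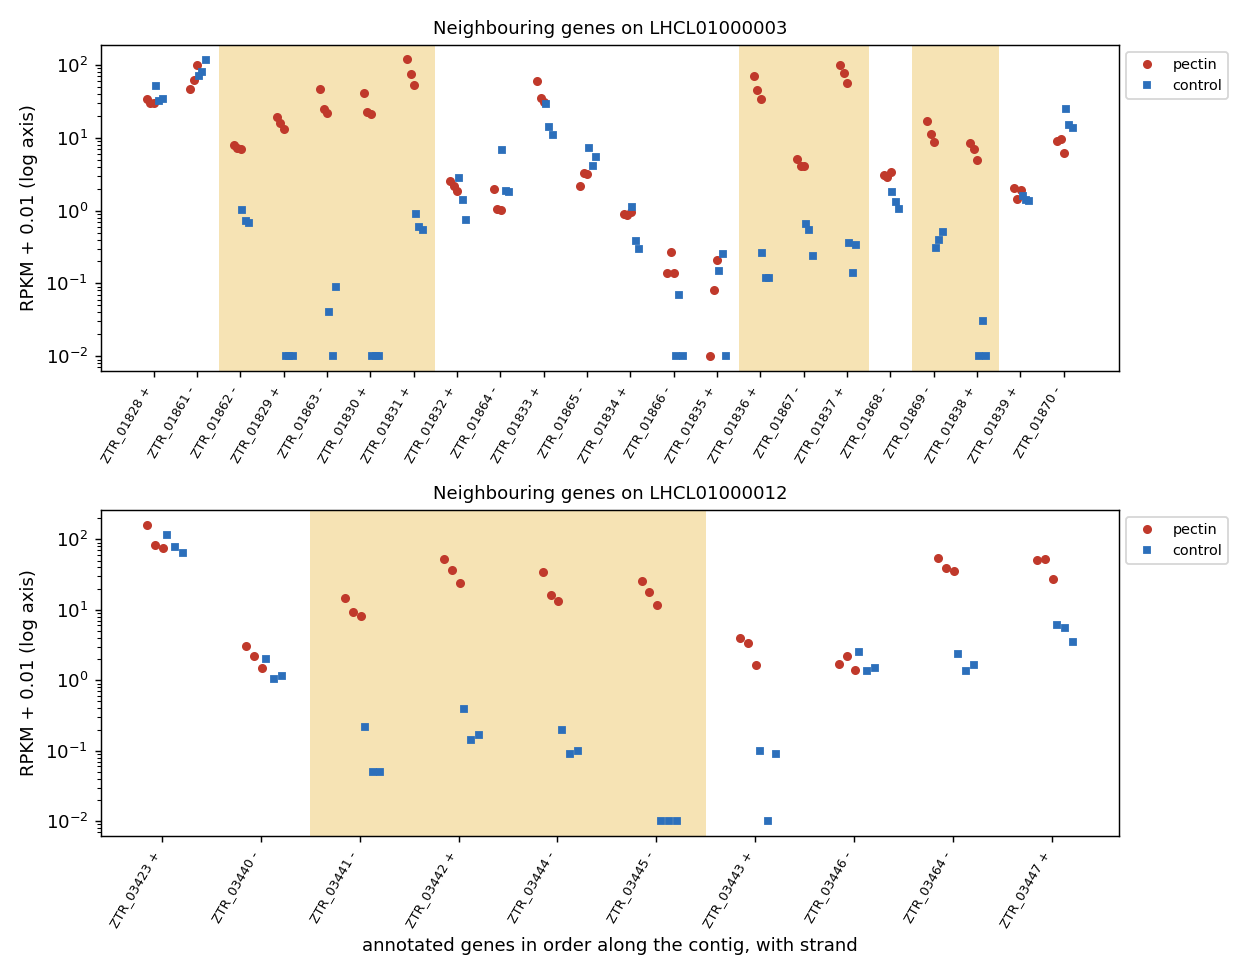
Level of consecutive annotated genes on LHCL01000003 (top) and LHCL01000012 (bottom), as RPKM + 0.01 on a log axis, with 3 pectin libraries (circles) left of 3 control libraries (squares) and the strand after each tag. Shaded genes belong to the set of 64; in the upper panel the 7 genes between the shaded blocks have means from 0.09 to 42.2 RPKM with pectin.

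Some pairs joined a very abundant gene and a weaker one. ZTR_06634, next to ZTR_06633, averaged 32.2 ± 9.86 RPKM with pectin and 0.693 ± 0.401 RPKM in control (SD, n = 3 each), while ZTR_06633 averaged 248 ± 70.3 RPKM with pectin. ZTR_00442, beside ZTR_00453 and pointing away from it, averaged 6.00 ± 0.895 RPKM with pectin and 0.217 ± 0.0737 RPKM in control (SD, n = 3 each). In other pairs the levels were alike. ZTR_00196 and ZTR_00193, which point away from each other across 792 bp on LHCL01000005, averaged 21.6 ± 12.0 and 22.6 ± 13.9 RPKM with pectin, against 0.0833 ± 0.0462 and 0.380 ± 0.105 RPKM in control (SD, n = 3 each). Both had their highest pectin value in pectin 1, at 35.2 and 38.6 RPKM, and values from 12.5 to 17.0 RPKM in the other pectin libraries.

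Of the 24 genes outside the set that flank the runs and pairs, 17 averaged at least 1 RPKM in control. Of the 22 with a control mean above 0, 3 averaged at least 4 times as much with pectin as in control, and the median ratio of pectin to control mean was 1.44. Over all annotated genes, 75.7% averaged at least 1 RPKM in control.

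The spread among the 3 pectin libraries was wide in many of these genes, and is set beside other genes here as a description, with no test. The highest pectin RPKM was at least 2 times the lowest in 32 of the 64 genes (50.0%), beside 690 of 6804 other genes with a pectin mean of at least 4 RPKM (10.1%). The median of that ratio was 2.01 in the set and 1.34 in the other genes. It was 1.86 in the 40 genes of the set with at least 100 reads in every pectin library, where counting error is smaller. The other genes were not limited in this way or matched for abundance, so the 1.86 has no like value beside it. Pectin 1 was the highest of the 3 in 37 genes (57.8%, beside 35.9% of the other genes), pectin 2 in 15 (23.4%, beside 24.9%) and pectin 3 in 12 (18.8%, beside 39.2%). Adjacent genes of the set had the same highest pectin library in 15 of 19 pairs. Many of these pairs share a run, and pectin 1 was highest in most genes of the set. The count was not made for all adjacent pairs, so nothing is read from it. The most even genes after ZTR_01862 were ZTR_02976, with 10.1, 10.6 and 12.2 RPKM with pectin against 0.54, 0.49 and 1.05 RPKM in controls, and ZTR_09813, with 39.0, 44.1 and 47.6 RPKM with pectin against 0.57, 0.34 and 1.75 RPKM in controls. In both, pectin 3 and control 3 were the highest of their group.

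A few genes were high mainly in pectin 2. In ZTR_01887, ZTR_01888 and ZTR_08399 pectin 2 was at least 3 times each of the other pectin libraries, and these were also the genes with the largest ratio of highest to lowest pectin value. ZTR_01888, a 1-exon gene on LHCL01000006 (23829 to 24932, minus strand), had 6.12, 67.7 and 14.5 RPKM in pectin 1 to 3, against 1.01, 0.35 and 0.21 RPKM in control 1 to 3. Its neighbour ZTR_01887 had 1.90, 16.6 and 2.47 RPKM with pectin, against 0.61, 0.54 and 0.59 RPKM in controls. The gene on the far side of ZTR_01887, ZTR_01874, is outside the set and was named after its values were seen. It had 16.1, 119 and 22.5 RPKM with pectin, against 27.5, 12.4 and 9.83 RPKM in controls, so that 3 consecutive genes were high in pectin 2 while control 1 exceeded the other pectin libraries in the last of them. ZTR_08399, on LHCL01000031 from 188876 to 189811, had 2.86, 22.1 and 5.20 RPKM with pectin, against 0.57, 0.44 and 0.46 RPKM in controls. Its partner ZTR_08398, 2482 bp away and pointing the other way, had the opposite order, at 29.7, 6.22 and 10.2 RPKM with pectin and 0.05, 0.08 and 0 RPKM in controls. Neighbours therefore did not always follow the same library.

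The order of the libraries was not the same on short and on larger contigs. On contigs of at most 20 annotated genes lay 11 of the 64 genes (17.2%, beside 7.64% of all genes). Pectin 3 was the highest pectin library in 10 of these 11 genes, and in 2 of the 53 on larger contigs. Their summed level was 140, 148 and 195 RPKM in pectin 1 to 3, against 4.43, 6.07 and 9.59 RPKM in control 1 to 3. On the larger contigs the sums were 2126, 1391 and 1104 RPKM in pectin 1 to 3, against 27.2, 16.1 and 18.4 RPKM in control 1 to 3. Among genes on short contigs, control 3 was the highest control in 6 of 11 and control 1 in 1. Among those on larger contigs with any control exon read, control 1 was the highest control in 36 and control 3 in 8. In other genes with a control mean above 0 and under 1 RPKM, control 1 was highest in 58.6%. Pectin 3 was highest in 39.2% of other genes with a pectin mean of at least 4 RPKM, on contigs of any size. The count was not made for other genes on short contigs, so the order cannot be called particular to these 11. Nor are the 11 separate cases: ZTR_09037, ZTR_09039 and ZTR_09045 share LHCL01000128, and some have reads that are not unique. The cut at 20 genes was chosen after the values were seen, and the difference between short and larger contigs was not tested.

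**Figure D4:**
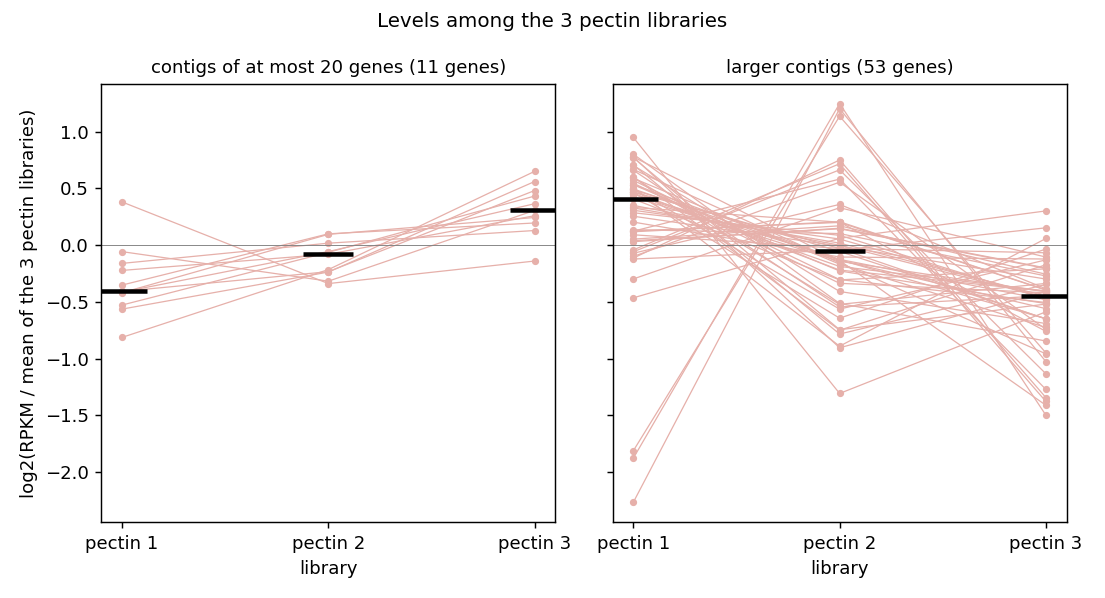
Level of each gene of the set in each pectin library relative to its mean over the 3 pectin libraries, on a log2 scale; thin lines join the values of 1 gene and black bars are medians. On contigs of at most 20 genes (left, 11 genes) pectin 3 is highest in 10, on larger contigs (right) pectin 1 is highest in 36 of 53, and 3 lines peak sharply in pectin 2.

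Not all reads behind these levels were alike. Reads outside annotated exons, which the files list as intron reads also for genes with 1 exon, made up 19.2%, 22.4% and 22.8% of the gene reads of the set in pectin 1 to 3, against 28.1%, 37.8% and 42.8% in control 1 to 3. ZTR_09859, with 1 exon and a coding length of 318 bp, runs from 29 to 346 and has no intron. Even so, 75.4% of its pectin gene reads were listed this way. The listing therefore does not place a read in an intron, and what it counts is not given in the sources used here. In all other genes the share was 14.1% to 15.8% in pectin libraries and 16.6% to 19.9% in control libraries. The share of the set is a sum in which single genes weigh heavily. Its reads outside exons numbered 12940, 9821 and 8276 in pectin 1 to 3. Of these, ZTR_09813 held 2242, 2172 and 2390, and ZTR_09194 held 1665, 1325 and 1594. The higher sum therefore cannot be read as a level that each gene of the set shares. Without the 3 most abundant genes the shares of the set were 23.8%, 27.1% and 29.1% in pectin and 28.7%, 38.1% and 43.9% in control libraries, and the groups then overlapped. In other genes with a mean under 1 RPKM over all 6 libraries, the share averaged 39.0 ± 0.291% in pectin and 41.3 ± 3.54% in control libraries (SD, n = 3 each).

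Exon-exon junction reads, which span 2 annotated exons, came to 51.0%, 50.7% and 49.1% of the exon reads of the 50 genes with several exons in pectin 1 to 3, against 44.4%, 38.7% and 38.4% in control 1 to 3. This difference rested on the 3 most abundant genes. Without them the shares were 37.6%, 40.3% and 38.9% in pectin and 42.9%, 37.0% and 36.6% in control libraries, with overlapping groups. Of the 50 genes, 48 had a junction read in every pectin library and 41 had at least 1 in the controls, so some of the low control signal came from spliced RNA.

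The level of ZTR_03124 needs to be read with its neighbour. This 4-exon gene is the first on LHCL01000018, from 235 to 1321 on the plus strand, and its end lies 34 bp from that of ZTR_03139, the most abundant gene of the set, which runs towards it. ZTR_03124 had 25.6, 13.6 and 5.62 RPKM in pectin 1 to 3, against 1.16, 0.24 and 0.63 RPKM in control 1 to 3. Its exon reads rose, but its junction reads numbered 7, 10 and 4 in pectin 1 to 3, against 14, 4 and 5 in control 1 to 3. Junction reads were 21 of 687 exon reads with pectin (3.06%, exact 95% interval 1.90% to 4.63%), against 23 of 31 in control (74.2%, exact 95% interval 55.4% to 88.1%). Reads outside its exons numbered 1419 with pectin and 13 in control. In ZTR_03139 itself, 88.4% of exon reads with pectin crossed a junction. How many of the reads on ZTR_03124 came from its neighbour was not tested, and the use of strand in counting is not given in the sources used here.

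Some genes had most of their reads listed outside exons. That share was over 50% in the summed pectin libraries for 8 of the 64 genes, ZTR_03124 included (12.5%, beside 4.00% of other genes with a pectin mean of at least 4 RPKM). Of the 8, 5 lay on contigs of at most 20 genes. Short genes were among the 8, such as ZTR_09859 and ZTR_10230 at 318 bp and ZTR_03445 at 549 bp. Whether the share follows gene length was not tested. ZTR_09813, on LHCL01000275 from 1875 to 2259 on the minus strand, had 6804 of 7514 pectin gene reads listed outside its exons (90.6%), against 165 of 180 in control (91.7%). Its coding length is 327 bp, so little of its span lies outside its exons, and where these reads lie is not given. It has 2 annotated exons, and 0 of its 710 exon reads with pectin crossed the junction, which allows a share of up to 0.423%. ZTR_09194, a 5-exon gene on LHCL01000161 (10251 to 11548, minus strand), had 79.6% of its pectin gene reads outside exons, against 81.0% in control. In these 2 genes the share outside exons was nearly the same with pectin and in control, while exon reads numbered 710 and 1174 with pectin and 15 and 24 in control. The median gene of the set had 17.2% of its pectin gene reads outside exons, beside 13.2% in other genes with a pectin mean of at least 4 RPKM. This difference was not tested.

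**Figure D5:**
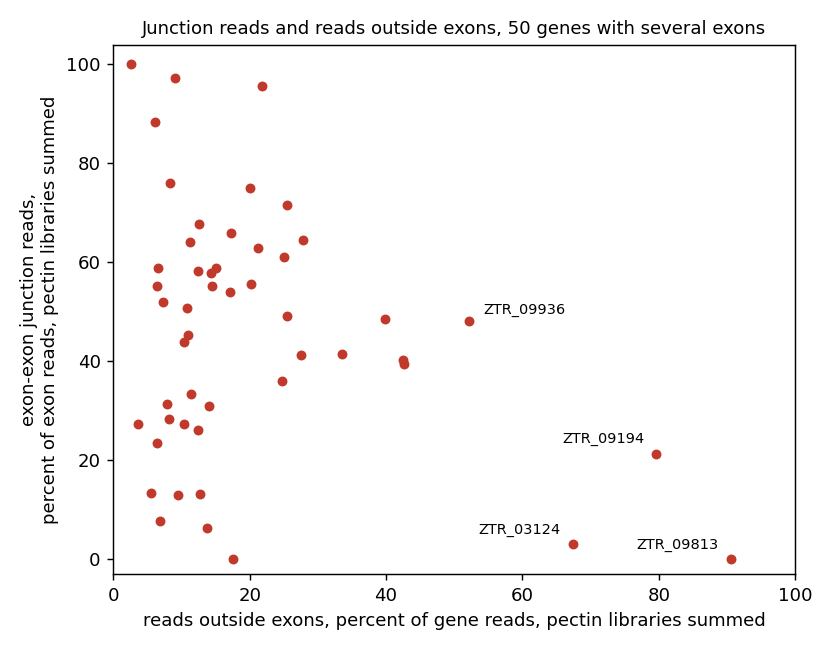
Share of exon reads that cross an exon-exon junction (vertical) against share of gene reads outside exons (horizontal), both in percent over the summed pectin libraries, for the 50 genes of the set with several exons. ZTR_09813 at 90.6%, ZTR_09194 at 79.6% and ZTR_03124 at 67.4% outside exons lie apart from the other genes, with junction shares of 0, 21.4% and 3.06%.

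Reads shared with other genes were rare. In 60 of the 64 genes every exon read was unique. The exceptions were ZTR_10971 with 112 unique of 180 exon reads over all libraries, ZTR_09037 with 168 of 303, ZTR_10230 with 121 of 160 and ZTR_09859 with 140 of 177. ZTR_10971 and ZTR_09037 each have 2 exons and a coding length of 624 bp. ZTR_10230 and ZTR_09859 each have 1 exon and the shortest coding length of the set, 318 bp, and both lie from 29 to 346 on the minus strand as the first gene of their contigs, LHCL01000138 and LHCL01000186. All 4 lie on short contigs, and which genes their non-unique reads came from is uncertain. Counted by unique reads alone, they had 103, 156, 115 and 134 reads with pectin, against 9, 12, 6 and 6 reads in control, in the order named.

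In structure the set resembled the annotation. The median coding length was 1264.5 bp, beside 1284 bp over all genes, and the median exon number was 3 in both. Genes with 1 exon made up 21.9% of the set and 22.1% of all genes. The share within 20 genes of a contig end was 60.9% in the set and 43.7% over all genes, and 5 of the 64 genes (7.81%, beside 4.51%) were the first or last on their contig.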

How the data were processed

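Poly-A selected RNA from 6 cultures was sequenced as paired ends, per the labels' protocols. Per the file headers, the authors deposited read counts per gene (exons, exon-exon junctions, introns, total and unique) and RPKM; not given in the sources used here: aligner, counter, strand use and genome build. Deposited TPM columns were not used. RPKM was used after removing digit separators. In the deposited values RPKM is exon reads per kilobase of exon, divided by a library total larger than the exon reads, so thresholds depend on it.

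The genes and lists were chosen with earlier results of these data known. Exon counts were tested once over all genes with edgeR 4.0.16 (R 4.3.3; quasi-likelihood, robust, TMM, filterByExpr, Benjamini-Hochberg, threshold 0.05, no replicate block), which left out 2149 genes; the code was tested on simulated data. DESeq2 1.42.0 was an alternative. Pooled ratios divide read sums by the library totals behind RPKM, with exact binomial 95% intervals; intervals and floors (3 reads) cover counting error only. Named were the 10 most abundant genes, runs of at least 3 and genes without control exon reads. Also named were the 3 most and 3 least even among pectin libraries, genes at the thresholds, and the longest and shortest. The genes named for pairs, shared reads or reads outside exons, and their neighbours, were chosen after their values were seen. Product lists could not be applied without annotation. Python 3.11.15 with matplotlib 3.10.9 drew the figures.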

Additional observations from a re-analysis of the deposited data

How the results depend on the processing

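The size of the set of 64 genes follows its thresholds. It was 37 with a control mean under 0.5 RPKM, 107 with one under 2 RPKM, 102 with a pectin mean of at least 2 RPKM and 42 with one of at least 8 RPKM. Without 1 library it was 62 to 72, with 60 to 63 of the 64 genes shared. TMM-rescaled RPKM gave 69 genes, including all 64. The planned use of the deposited TPM columns was not run; RPKM rescaled to 1 common sum per library, the TPM scale, gave 45 genes at the same numbers, of which 34 are in the set. Counting unique reads alone, chosen after seeing the data, gave 63.

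With 1 other gene allowed inside a run, 21 rather than 12 genes lay in runs of at least 3; leaving out any 1 library kept 12. The median coding length was 1162.5 bp with the 8 RPKM threshold and 1305 bp with the 0.5 RPKM threshold. The pectin share of reads outside exons, 21.4% as a sum, was 15.7% as a median over genes and 26.7% without the 3 most abundant genes, and the junction share in pectin libraries, 50.2%, was 38.9% without them (the last 2 chosen after seeing the data).

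Replicate numbers are shared between groups but not said to mark pairs, and for this reason alone the main test had no replicate block. Between a pectin and a control library of equal number, deviations correlated at 0.478, 0.0732 and 0.432 for numbers 1 to 3. These values do not settle whether the numbers mark pairs, and a shared replicate effect was not tested. Among all genes tested, 1163 were called higher and 1060 lower with a replicate block, against 844 and 642 without it. The same contrast chose the genes, so their calls say nothing about stability: 64 of 64 were called with the replicate block, beside 12.7% of all genes tested, and 59 to 64 without 1 library, beside 3.5% to 10.1%. About 24 control exon reads per gene limit the precision of every ratio.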

Other observations

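The opposite pattern was rarer at the same thresholds. In 25 genes the pectin mean was under 1 RPKM, the control mean at least 4 RPKM and the lowest control value above the highest pectin value, against 64 genes off in control and on with pectin. The highest of the 25 averaged 20.6 RPKM in control and their median was 6.04 RPKM, while the highest of the 64 averaged 267 RPKM with pectin and their median was 10.5 RPKM. Among the 25 genes there were 4 adjacent pairs and 1 run of 3, against 19 adjacent pairs and 3 runs of at least 3 among the 64. A longer list holds more pairs and runs by its size alone, so these counts do not show which list is more clustered. The difference between these numbers was not tested, and the contrast that defines both lists is the same.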
